A study of Gallus gallus with 27 samples.

Results

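Chromatin accessibility of double-positive neural crest cells from the vagal region of the chick embryo was compared with that of double-negative cells at Hamburger-Hamilton stage 18 (HH18), in all 140062 genomic intervals of a table of raw ATAC-seq counts. The comparison rests on 6 libraries, 3 of HH18 double-positive and 3 of HH18 double-negative cells, out of 18 libraries used and 27 samples in the labels. Double-positive cells carried the signal of both enhancer reporters (NC2+, E2+), and double-negative cells, labelled as the negative control, carried that of neither (NC2-, E2-). Levels in HH18 E2-only cells (NC2-, E2+) and in the matching 3 groups at HH25 are given as context. All groups came from wild-type chicken embryos electroporated at HH8/9 with the NC2:citrine and E2:citrine plasmids, so the double-negative cells come from electroporated embryos as well, and all were sorted by flow cytometry from dissociated vagal regions. Both reporters are labelled citrine, and the labels do not say how the sort distinguished them. The labels give no embryo number per library, and they do not say which cell types the double-negative gate holds.

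The neural crest is a transient population of the vertebrate embryo that leaves the dorsal neural tube, migrates and forms many cell types. Its vagal part lies beside the hindbrain and is best known as the main source of the enteric nervous system, the nerve cells and glia of the gut, and it also contributes to the heart's outflow tract. NC2 is known from background as an enhancer of FOXD3, a transcription factor of early neural crest cells. ATAC-seq inserts sequencing adapters into DNA that is not tightly packed by nucleosomes, so the count in an interval follows how accessible that DNA is, as it is at promoters and enhancers in use. In sorted bulk cells a higher share of cells with an accessible interval and more accessibility per cell cannot be told apart. The intervals are given by position in the galGal5 build, as the file lists them, because no genome or gene annotation of that build was used here. For that reason no gene names or sequences are given, and the labelled cell types were not checked against marker genes.

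Summed over the intervals, the double-positive libraries held 3004493 to 3477552 counts and the double-negative ones 992341 to 3604040. The shallowest was double-negative replicate 2, in which 23.8% of intervals stood at 1, the lowest value in the table, against 2.52% to 6.31% in the other 5 libraries. A floor of 3 counts corresponded to 0.977 to 1.11 CPM (counts scaled to a common library total) in double-positive libraries and to 0.797 to 2.98 CPM in double-negative ones, a limit that covers counting error only. Spearman correlations of interval counts were 0.826 to 0.843 among double-positive libraries, 0.694 to 0.791 among double-negative libraries and 0.445 to 0.5 between the groups. The labels name 3 biological replicates per stage, and the counts of replicate pairs differed by 1.66 to 2.25 in chi-square per degree of freedom.

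Double-positive cells were more accessible than double-negative cells at 23912 intervals and less accessible at 18648 of the 134020 that passed a filter on low counts, which is 17.8% and 13.9% of those tested and 31.8% together. Calls are those of edgeR's quasi-likelihood test at a Benjamini-Hochberg adjusted p below 0.05 over all tested intervals, with libraries scaled by TMM. The higher intervals had a median log2 fold change of 2.03 and the lower ones of -1.59, against -0.05 over all tested intervals. A test against a fold of 2 (edgeR's glmTreat) called 12939 intervals higher and 4986 lower, or 9.65% and 3.72%. The higher calls were thus 56.2% of all calls and 72.2% of those beyond 2-fold. With library totals alone in place of TMM the median over all intervals moved to -0.26 and the calls became 20235 higher against 26651 lower, so the direction with more calls depended on the scaling. Beyond 2-fold it was 10844 higher and 7038 lower with that scaling.

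Over all tested intervals the HH18 group means had similar medians with TMM scaling, of 4.365 CPM (double-positive), 4.266 CPM (E2-only) and 4.026 CPM (double-negative). In the higher intervals the E2-only level stayed near that value, while double-positive cells lay above theirs and double-negative cells below. The order of double-positive over double-negative cells follows from how these intervals were called. The median level was 13.68, 12.95 and 13.02 CPM in the double-positive libraries, 4.12, 4.31 and 3.96 CPM in the E2-only libraries and 2.92, 2.98 and 2.71 CPM in the double-negative libraries. In 94% of them the 3 double-positive libraries all lay above the 3 double-negative ones, against 39.5% of all tested intervals that separated the groups in either direction. All 3 double-negative libraries stood at the lowest value in 142 of them (0.594%), against 0.26% of all tested intervals. In the lower intervals the median was 2.61, 2.59 and 2.89 CPM in double-positive libraries, 4.12, 3.88 and 3.74 CPM in E2-only libraries and 9.56, 9.93 and 9.16 CPM in double-negative libraries. The groups did not overlap in 84.6% of these. All 3 double-positive libraries stood at the lowest value in 251 (1.35%), against 0.413% of all tested intervals.

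The level in E2-only cells divided each list. Among the higher intervals the E2-only mean was at or above the double-positive mean in 12.8%, between the other means and above their geometric mean in 20.9%, between them and at or below it in 36.1%, and at or below the double-negative mean in 30.2%. The median ratio of the double-positive to the E2-only mean was 3.06. Among the lower intervals the E2-only mean was at or below the double-positive mean in 30.2% and at or above the double-negative mean in 11.9%. Among tested intervals not called it was at or below both other means in 34.5% and at or above both in 42.4%. In intervals not called the double-positive and double-negative means lie closer together by selection, so the E2-only mean falls outside them more readily. The shares among intervals not called are therefore no reference for the 30.2% of each list, and nothing is read from the comparison. The E2-only libraries enter none of these calls, but they share the fit.

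Calls were more frequent where counts were deeper. Tested intervals were divided into 3 classes of equal size by abundance, and in the highest 24.6% were higher and 20.4% lower, against 10.1% and 8.11% in the lowest class. The median absolute log2 fold change of the calls was 1.42 in the highest class and 2.09 in the lowest.

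The level in E2-only cells differed between classes of fold change. The 1743 higher intervals with a log2 fold change of at most 1 had median levels of 21.6 CPM in double-positive cells, 21.4 in E2-only cells and 12.0 in double-negative cells. The 1036 with a log2 fold change over 4 had median levels of 25.7 CPM in double-positive cells, 2.18 in E2-only cells and 1.27 in double-negative cells. The E2-only level of these lay close to the double-negative one. On the lower side the 288 intervals beyond 4 on the log2 scale had medians of 0.678 CPM in double-positive cells, 0.859 in E2-only cells and 16.4 in double-negative cells.

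**Figure D1:**
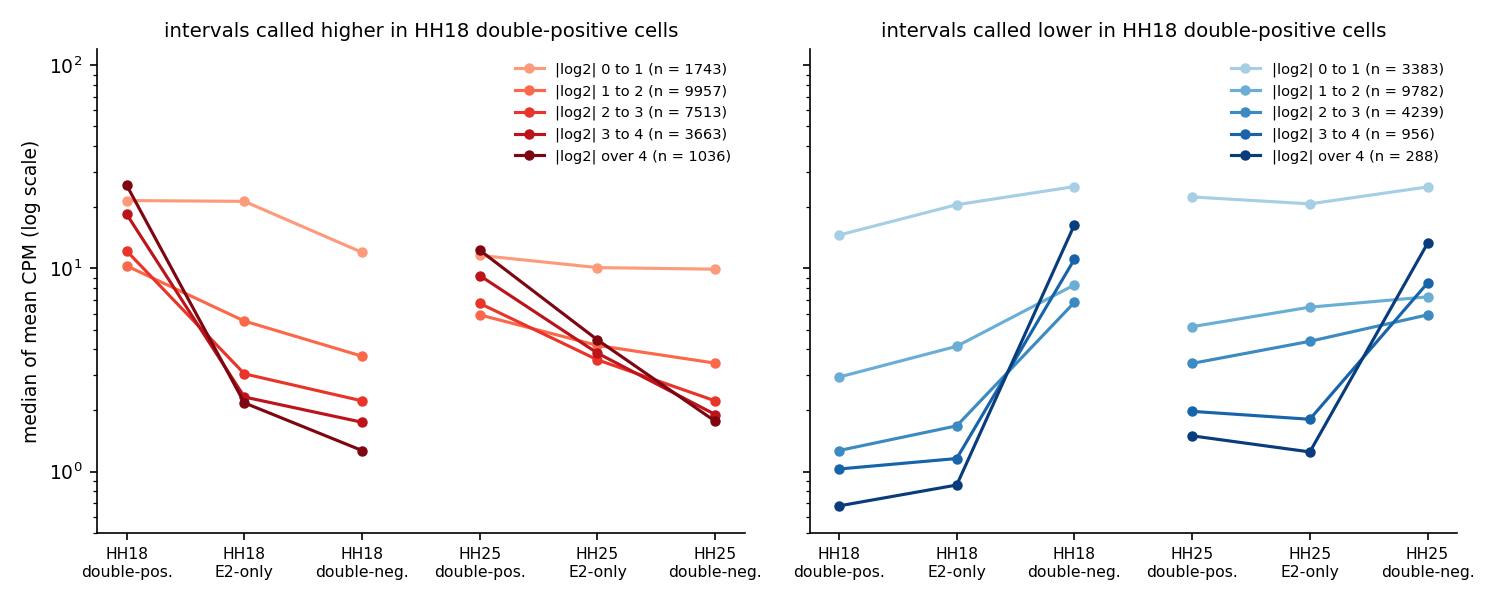
Median over intervals of the group mean in CPM (log axis) for the 6 groups, with the intervals called higher (left) and lower (right) in HH18 double-positive cells divided by absolute log2 fold change. In the classes with larger fold changes the HH18 E2-only level is near the HH18 double-negative level on the left and near the HH18 double-positive level on the right, and the HH25 double-positive medians lie above the HH25 double-negative ones in every class on the left and below them in every class on the right.

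The strongest gains were intervals nearly empty in double-negative cells. The 8 intervals with the largest fold change, among those called with no overlap between groups and at least 20 CPM in double-positive cells, lay on chromosomes 1, 4, 8, 9 and Z. This choice favours low double-negative levels and sets double-positive libraries above double-negative ones, so both are a description. Their double-positive means were 22.8 to 74.4 CPM, their E2-only means 0.572 to 3.1 CPM and their double-negative means 0.533 to 1.04 CPM. All these double-negative means lay below the counting floor of the shallow replicate 2 (2.98 CPM). The highest lay above the floors of replicates 1 and 3 (0.797 and 1.02 CPM). On chromosome 4 the interval 61827593 to 61827793 held 51.5, 54.0 and 46.3 CPM in double-positive libraries, 3.01, 3.88 and 2.42 CPM in E2-only libraries and 1.33, 0.993 and 0.339 CPM in double-negative libraries. All double-positive libraries were far above both other groups, with a log2 fold change of 5.76 against double-negative cells (SE 0.43, edgeR adjusted p = 4.1e-26). On chromosome Z the interval 17072755 to 17072955 held 31.6, 24.8 and 30 CPM in double-positive libraries, 2.69, 1.72 and 1.54 CPM in E2-only libraries and 0.266, 1.99 and 0.339 CPM in double-negative libraries, of which 2 stood at the lowest value. Its log2 fold change was 5.68 (SE 0.50, edgeR adjusted p = 3.2e-20).

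On chromosome 4 the interval 26604988 to 26605188 held 28.0, 30.7 and 29.7 CPM in double-positive libraries, 0.633, 2.16 and 0.44 CPM in E2-only libraries and 0.531, 0.993 and 0.339 CPM in double-negative libraries. E2-only and double-negative cells overlapped there, and the double-positive libraries stood alone (log2 fold change 5.74, SE 0.51, edgeR adjusted p = 2.9e-20). In 4 of the 8, among them the intervals on chromosome 8 at 27825364 to 27825564, chromosome 9 at 18852934 to 18853134 and chromosome 1 at 102437130 to 102437330, all 3 double-negative libraries stood at the lowest value. The ratio of summed counts, scaled to the libraries, was 66.9 for the chromosome 8 interval (95% counting interval 22.6 to 327), from 222 double-positive and 3 double-negative counts. For the chromosome 9 interval it was 65.1 (22.0 to 318) and for the chromosome 1 interval 59.7 (20.1 to 292). The size of these ratios depends on the table's lowest value of 1, which may stand for no reads. With 1 subtracted from every count the log2 fold change of the chromosome 8 interval was 9.59, against 5.94 without. The chromosome 9 interval held 28.3, 27.4 and 19.9 CPM in double-positive libraries and 2.22, 2.16 and 3.52 CPM in E2-only libraries. The chromosome 1 interval held 31.9, 20.3 and 16.3 CPM in double-positive libraries and 2.37, 6.03 and 0.22 CPM in E2-only libraries, with the double-positive libraries above all of these.

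**Figure D2:**
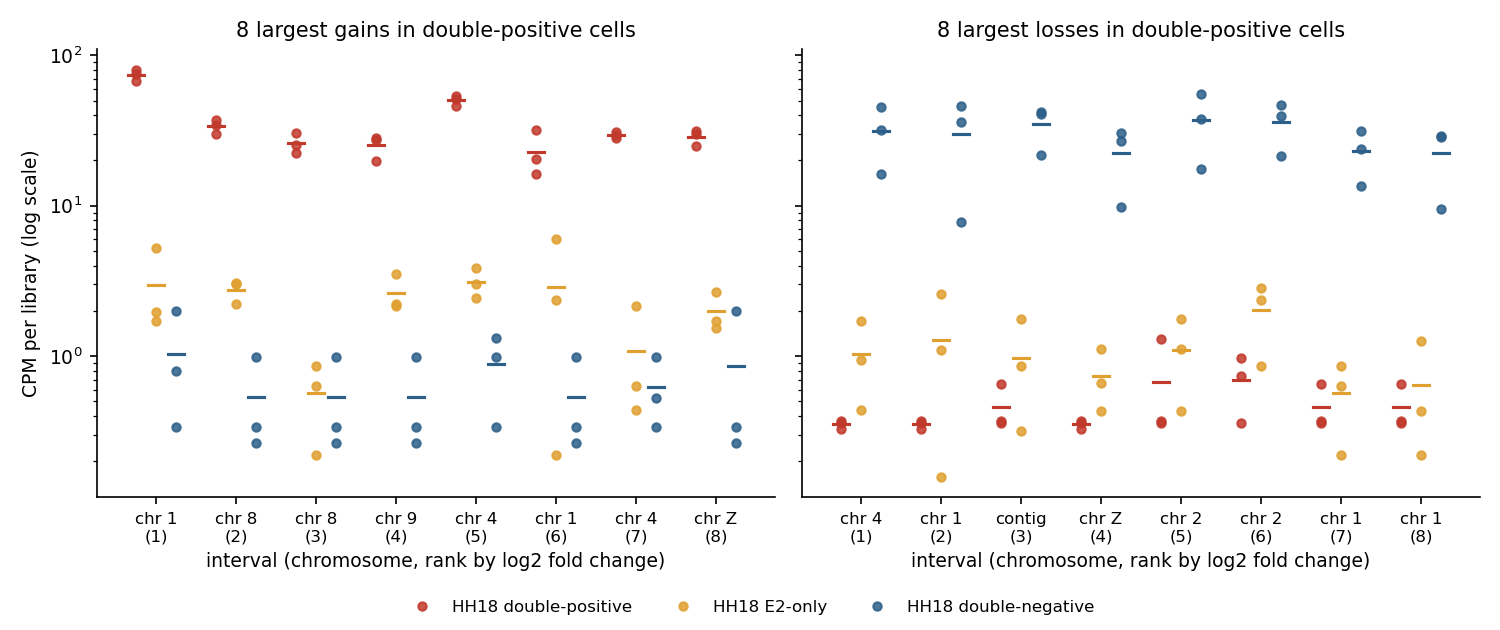
CPM per library (log axis; points are libraries, short lines are group means) in the 8 intervals with the largest gain and the 8 with the largest loss in HH18 double-positive cells. The double-positive libraries stand at 16.3 to 80.3 CPM on the left and at 0.326 to 1.3 CPM on the right, where the double-negative libraries spread from 7.8 to 55.5 CPM with replicate 3 lowest in all 8.

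The strongest losses had a wider spread, and 1 double-negative library stood apart in them. The 8 intervals with the largest loss had double-positive means of 0.352 to 0.693 CPM, E2-only means of 0.572 to 2.03 CPM and double-negative means of 22.3 to 37.0 CPM. They were chosen by the same rule in the other direction, which favours low double-positive levels. On chromosome 1 the interval 159624678 to 159624878 had all 3 double-positive libraries at the lowest value, 0.158, 2.59 and 1.1 CPM in E2-only libraries and 46.0, 35.8 and 7.8 CPM in double-negative libraries. The ratio of summed counts of double-negative over double-positive cells was 85.5 (95% counting interval 28.9 to 418), and the interval lay 90.53 kb from the one on chromosome 1 with the largest gain of all, at 159715210 to 159715410. On chromosome Z the interval 57268447 to 57268647 again had all double-positive libraries at the lowest value, against 30.3, 26.8 and 9.83 CPM in double-negative libraries (ratio of summed counts, double-negative over double-positive, 62.7, interval 21.1 to 307). With 1 subtracted from every count the log2 fold changes of these chromosome 1 and Z intervals were -9.78 and -9.34, against -6.27 and -5.84 without. On chromosome 2 the interval 137722665 to 137722865 held 1.3, 0.37 and 0.362 CPM in double-positive libraries, 1.11, 0.431 and 1.76 CPM in E2-only libraries and 55.5, 37.7 and 17.6 CPM in double-negative libraries. Its log2 fold change was -5.66 (SE 0.48, edgeR adjusted p = 4e-21), and double-positive and E2-only libraries overlapped.

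Double-negative replicate 3 was the lowest of its group in all 8 of these intervals. It was the lowest in 93.4% of the 288 lower intervals beyond 4 on the log2 scale, with a median of 8.82 CPM against 20.6 and 19.9 CPM in replicates 1 and 2, and in 70.6% of the 956 between 3 and 4. Over all 18648 lower intervals it was the lowest in 36.7%. All 8 intervals were called lower with any 1 of the 6 libraries left out, replicate 3 included. Whether the libraries of the double-negative gate differed in the cells they held was not tested.

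The most accessible of the called-higher intervals followed another pattern. On chromosome 1 the interval 153949737 to 153949937 held 581, 745 and 680 CPM in double-positive libraries, 529, 729 and 763 CPM in E2-only libraries and 19.9, 30.8 and 26.5 CPM in double-negative libraries. It ranked 3 among all intervals by double-positive level, with a log2 fold change of 4.76 (SE 0.17, edgeR adjusted p = 4.8e-44). Both reporter-positive groups overlapped, at a ratio of means of 0.993, and both stood above the double-negative libraries. On chromosome 8 the interval 27835367 to 27835567 held 171, 276 and 268 CPM in double-positive libraries, 159, 206 and 253 CPM in E2-only libraries and 6.11, 6.95 and 10.9 CPM in double-negative libraries (log2 4.88, SE 0.31, edgeR adjusted p = 5.5e-12). Its ratio of double-positive to E2-only means was 1.16. The double-positive and E2-only libraries overlapped again, and no double-negative library came near them.

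Both intervals stood out from their surroundings. The nearest interval on chromosome 1, 3.083 kb away, had means of 70.7 CPM in double-positive cells, 24.2 in E2-only cells and 5.47 in double-negative cells. Around the chromosome 8 interval the 3 preceding ones, at -15.08, -10.0 and -7.342 kb, had means of 24.9 to 29.3 CPM in double-positive cells, 0.572 to 4.26 in E2-only cells and 0.533 to 4.43 in double-negative cells. The next one, 4.416 kb further on, did not differ beyond the spread between libraries (6.92, 8.9 and 6.68 CPM in double-positive, E2-only and then double-negative cells, edgeR adjusted p = 0.88). An interval at 4040 to 4240 of an unlocalised contig assigned to chromosome 8, chosen after its values were seen, had levels close to those of the chromosome 8 interval, with means of 251 CPM in double-positive cells, 211 in E2-only cells and 6.35 in double-negative cells. At HH25 the chromosome 1 interval had means of 46.1, 19.3 and 9.25 CPM and the chromosome 8 interval of 12.7, 3.18 and 1.21 CPM in double-positive, E2-only and then double-negative cells. The electroporated plasmids carry chick enhancer sequence, and interval counts do not separate plasmid from genome. Whether plasmid reads contributed to these intervals was not tested.

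**Figure D3:**
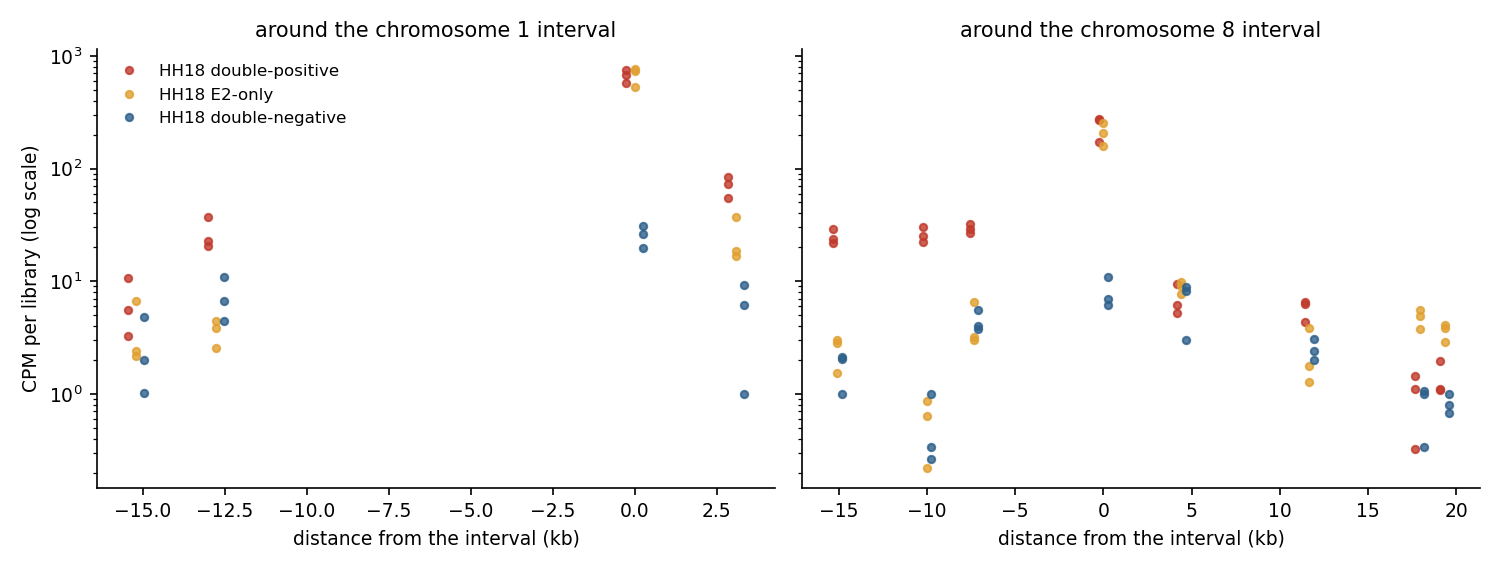
CPM per library (log axis) in the tested intervals within 20 kb of the chromosome 1 and chromosome 8 intervals, against the distance in kb from each interval, for HH18 double-positive, E2-only and double-negative libraries. At distance 0 the double-positive and E2-only libraries overlap at 529 to 763 CPM on chromosome 1 and at 159 to 276 CPM on chromosome 8, while the neighbours are lower.

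The other 4 of the 6 most accessible called-higher intervals differed less from double-negative cells. On chromosome 5 the interval 49353470 to 49353670 held 201, 176 and 156 CPM in double-positive libraries, 172, 183 and 190 CPM in E2-only libraries and 31.4, 54.6 and 38.7 CPM in double-negative libraries (log2 2.17, SE 0.17, edgeR adjusted p = 7e-22). On chromosome 12 the interval 7587432 to 7587632 had means of 148 ± 11.5 CPM in double-positive cells, 131 ± 12.5 in E2-only cells and 47.3 ± 3.6 in double-negative cells (SD, n = 3 each). Double-positive and E2-only libraries overlapped in the chromosome 5 interval, and double-negative libraries lay below both in each. On chromosome 2 the interval 27346871 to 27347071 separated all 3 groups, at 142, 142 and 156 CPM in double-positive libraries, 108, 97.0 and 112 CPM in E2-only libraries and 64.8, 75.5 and 76.3 CPM in double-negative libraries. The interval on chromosome 3 at 32986936 to 32987136 was higher by 0.92 on the log2 scale, with means of 144 ± 19.7 CPM in double-positive cells, 140 ± 5.16 in E2-only cells and 76.8 ± 4.7 in double-negative cells (SD, n = 3 each).

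Of the 1000 intervals with the highest double-positive level 618 were called higher and 67 lower. These 1000 took 7.9%, 7.95% and 7.67% of all counts in double-positive libraries and 5.66%, 5.71% and 5.22% in double-negative libraries. Since they were ranked by the double-positive level, the larger number of higher calls is a description of that ranking. The most accessible interval of all, on chromosome 2 at 49766663 to 49766863, was not called, with means of 5120 ± 363 CPM in double-positive cells, 3610 ± 1210 in E2-only cells and 4720 ± 838 in double-negative cells (edgeR adjusted p = 0.71).

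The called-lower intervals most accessible in double-negative cells changed little. The 6 highest lay on chromosomes 1, 2, 4, 14 and Z (2 intervals), with means of 84.3 to 132 CPM in double-positive cells, 97.7 to 163 in E2-only cells and 133 to 169 in double-negative cells. Their log2 fold changes were -0.66 to -0.36, and none passed the test against a fold of 2. With loess offsets by abundance none of the 6 was called and 2 changed sign. The largest, on chromosome Z at 23821062 to 23821262, held 87.6, 92.5 and 72.7 CPM in double-positive libraries, 99.4, 105 and 103 CPM in E2-only libraries and 140, 154 and 108 CPM in double-negative libraries (edgeR adjusted p = 0.00019). Its groups did not overlap.

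The same contrast was made at HH25, where 17679 intervals (13.2%) were higher in double-positive cells and 10578 (7.89%) lower. The contrasts of the stages share no library, but both come from the same fit. Of the HH18 higher intervals 12763 were also higher at HH25, which is 53.4% of the HH18 list and 72.2% of the HH25 list, and 148 were lower there. Of the HH18 lower intervals 4749 were lower at HH25, or 25.5% of the HH18 list and 44.9% of the HH25 list, and 541 were higher. The share called again grew with the size of the HH18 difference. It was 18.9%, 34.9%, 64.4%, 85.9% and 94.5% of the higher intervals with log2 fold changes of 0 to 1, 1 to 2, 2 to 3, 3 to 4 and over 4. For the lower intervals it was 15.5%, 20.1%, 32.0%, 66.2% and 93.1%.

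The levels of both lists at HH25 are given as a description, since intervals chosen for their HH18 difference will tend to show a smaller one in other libraries. In the HH18 higher intervals the median of the group means was 7.13 CPM in HH25 double-positive, 4.11 in HH25 E2-only and 2.76 in HH25 double-negative cells. In the HH18 lower intervals it was 5.28 CPM in HH25 double-positive, 6.76 in HH25 E2-only and 8.50 in HH25 double-negative cells. All 8 of the strongest gains were called higher at HH25, with log2 fold changes of 1.87 to 3.96, and 7 of the 8 strongest losses were called lower. The exception was the chromosome 1 interval at 159624678, with HH25 means of 2.18 CPM in double-positive and 4.16 in double-negative cells (edgeR adjusted p = 0.34).

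The interaction term, which tests whether the difference between double-positive and double-negative cells itself differed between the stages, was called at 9368 intervals (6.99%). The difference was more positive at HH18 in 4544 (3.39%) and more negative in 4824 (3.6%). With library totals alone the split was 3169 and 7419. Among the HH18 higher intervals 3826 passed it, 3768 of them with the larger value at HH18, and among the HH18 lower intervals 3691 passed it, 3683 with the more negative value at HH18. These lists were chosen on the HH18 contrast, which is a term of the interaction, so the choice favours these signs and nothing is read from them. Stage and library preparation cannot be told apart in this term. Without double-negative replicate 3 the interaction was called at 6140 intervals, with the more positive value at HH18 in 2733. That last count was 2739 without double-negative replicate 1 and 2776 without double-positive replicate 1.

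Of the intervals called at HH18, those with the smallest interaction adjusted p in each direction showed different courses. On chromosome 3 the interval 45287795 to 45287995 held 49.8, 50.3 and 42.3 CPM in HH18 double-positive libraries, 2.69, 0.431 and 3.52 CPM in E2-only and 3.99, 2.98 and 2.71 CPM in double-negative libraries. At HH25 it stood at 16.1, 13.2 and 5.6 CPM in double-positive libraries and 11.8, 10.3 and 9.96 CPM in double-negative libraries, which overlapped. The log2 fold change was 3.82 at HH18 and 0.07 at HH25 (difference 3.74, SE 0.45, edgeR adjusted p = 7.3e-10). On chromosome 13 the interval 7169931 to 7170131 had means of 118 ± 17.7 CPM in double-positive cells, 6.24 ± 0.947 in E2-only cells and 5.24 ± 1.98 in double-negative cells at HH18. At HH25 these were 42.9 ± 7.37, 25.5 ± 5.18 and 12.5 ± 1.4 CPM (SD, n = 3 each), and the log2 difference between the stages was 2.57 (SE 0.32, edgeR adjusted p = 4.8e-09). On chromosome 2 the interval 138081183 to 138081383 was higher at HH18, with means of 44.9 CPM in double-positive and 5.5 in double-negative cells, and stood at 24.5 and 19.5 CPM in double-positive and double-negative cells at HH25.

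In the other direction the 4 intervals all lay on unlocalised contigs assigned to chromosome 1. Their HH18 means were 8.98 to 19.4 CPM in double-positive cells, 12.4 to 19.5 in E2-only cells and 31.3 to 48.7 in double-negative cells, and their HH25 means were 37.0 to 60.9, 27.3 to 41.0 and 22.6 to 34.5 CPM. All 4 were called lower in double-positive cells at HH18, with log2 fold changes of -1.96 to -1.32, and had HH25 log2 fold changes of 0.61 to 1.03. The 7749 tested intervals outside the assembled chromosomes also differed between the stages. At HH18 6.97% of them were higher and 24.2% lower in double-positive cells, at HH25 20.4% and 2.75%, and 20.4% of them (1577) passed the interaction with the more negative value at HH18. Without double-negative replicate 3 the HH18 share of lower calls on these contigs was 12.5%. These contigs took 3.25%, 3.65% and 3.89% of counts in HH18 double-positive libraries and 5.1%, 4.71% and 6.68% in HH18 double-negative libraries, replicate 3 holding the last value.

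Calls were unevenly spread over the chromosomes. Chick chromosomes range from a few large ones to many small, gene-dense ones called microchromosomes. Among the 29 chromosomes with at least 100 tested intervals the share of higher calls was lowest on chromosome 33 (2.71%) and highest on chromosome Z (21.8%), and the share of lower calls was lowest on chromosome 2 (10.4%) and highest on chromosome 25 (34.2%). Higher calls outnumbered lower ones on 13 of these chromosomes, and lower calls outnumbered higher ones on 16. With library totals alone higher calls were 17.3% and lower calls 16% on chromosomes 1 to 5, against 20.5% and 11.1% with TMM. On chromosomes 6 to 10 the order turned, to 15.7% higher and 18.9% lower, against 18.7% and 13.2% with TMM. Chromosome 9 had 19.2% higher and 12.6% lower calls, chromosome 14 had 14.3% and 18.5%, and chromosome 28 had 6.45% and 31.6%.

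**Figure D4:**
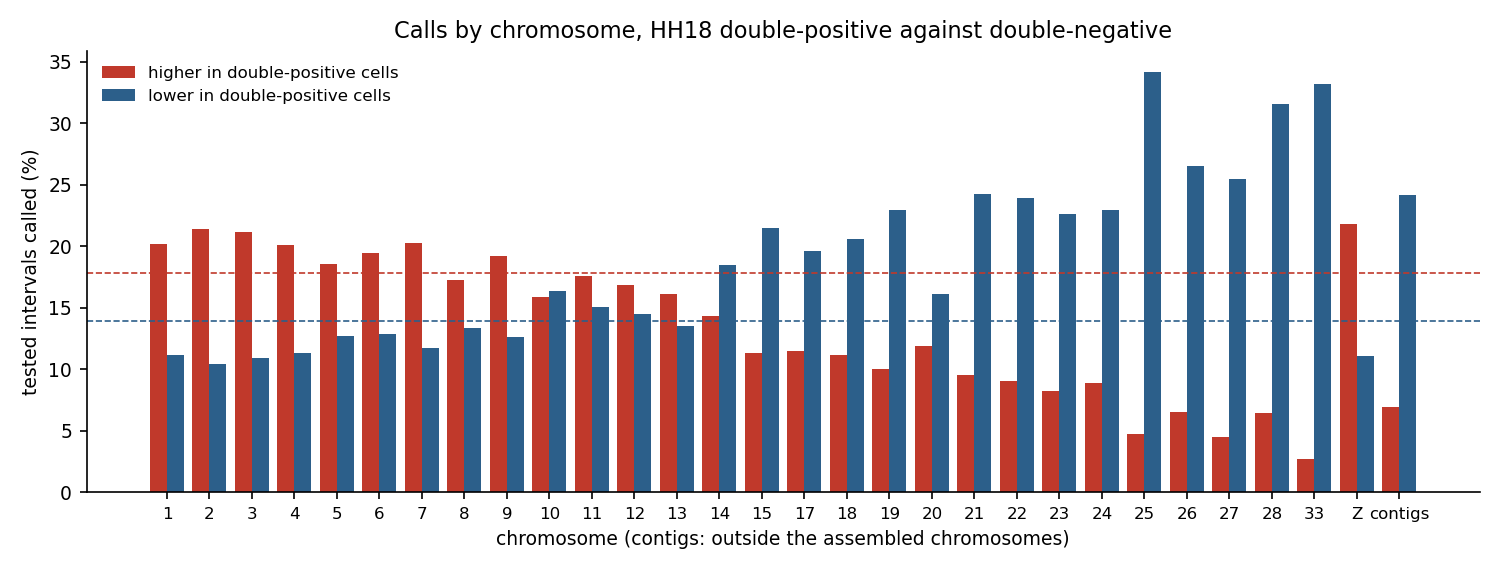
Percentage of tested intervals called higher and lower in HH18 double-positive cells on each chromosome with at least 100 tested intervals and on the contigs, with dashed lines at the shares over all tested intervals (17.8% higher, 13.9% lower). Higher calls prevail on chromosomes 1 to 9, 11 to 13 and Z, and lower calls on chromosome 10, on 14 and the higher-numbered ones and on the contigs, all with TMM scaling.

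A shift between chromosomes 1 to 5 and chromosomes 11 to 33 could also be seen in the shares of counts. These are taken of each library's total and use no TMM factors. Chromosomes 1 to 5 took 57.2%, 56.9% and 56.8% of all counts in double-positive libraries and 52.8%, 51.9% and 50.7% in double-negative libraries. Chromosomes 11 to 33 took 17.2%, 17.3% and 17.3% in double-positive libraries and 20.7%, 22.0% and 21.9% in double-negative libraries. Chromosome Z took 6.65%, 6.64% and 6.52% in double-positive and 6.21%, 5.97% and 5.71% in double-negative libraries. In each of these classes the groups did not overlap, and the exact two-sided permutation p was 0.1, the smallest that 3 libraries against 3 can give. On chromosomes 6 to 10 the means were 15.5% ± 0.143 in double-positive and 15.15% ± 0.277 in double-negative libraries (SD, n = 3 each, exact permutation p = 0.2). In E2-only cells the mean shares were 55.0% on chromosomes 1 to 5 and 19.4% on chromosomes 11 to 33. At HH25 the means on chromosomes 1 to 5 were 52.0%, 52.4% and 51.2% in double-positive, E2-only and then double-negative cells. There the double-positive and double-negative libraries overlapped. On chromosomes 11 to 33 the HH25 means were 20.63%, 21.33% and 22.65%, and the double-positive libraries lay below the double-negative ones. Shares sum to 100% in a library, so a larger share of some chromosomes goes with a smaller share of others.

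Calls also followed position on the large chromosomes. On chromosomes 1 to 5, intervals within 2 Mb of either end, taken as the chromosome start or the last listed interval, were higher in 13.1% and lower in 20.2%. Those over 20 Mb from both ends were higher in 21.2% and lower in 10.3%, and the shares between 2 and 20 Mb lay between these values. In the quartile of 1 Mb windows with the fewest intervals (1 to 107 a window) 21.0% of intervals were higher and 8.29% lower. In the quartile with the most (142 to 197 a window) 19.6% were higher and 13.5% lower.

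Most 1 Mb windows differed when the counts of their intervals were summed. Such sums give most weight to intervals with many counts, and the median log2 fold change of single tested intervals was -0.05. Of 1029 windows with at least 5 intervals 703 (68.3%) were higher and 143 (13.9%) lower in double-positive cells, by edgeR's quasi-likelihood test with adjusted p below 0.05, and the median window log2 fold change was 0.31. With library totals alone the median was 0.10 and the split 478 higher and 278 lower. With the 6 compared libraries fitted alone it was 568 and 234. Higher windows made up 80.7% of those on chromosomes 1 to 5 and 75.6% on chromosome Z, and 26.3% on chromosomes 11 to 33, where 53.8% were lower. On chromosomes 11 to 33 the median was -0.20 with TMM and -0.41 with library totals alone, below the median over all windows with either scaling.

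**Figure D5:**
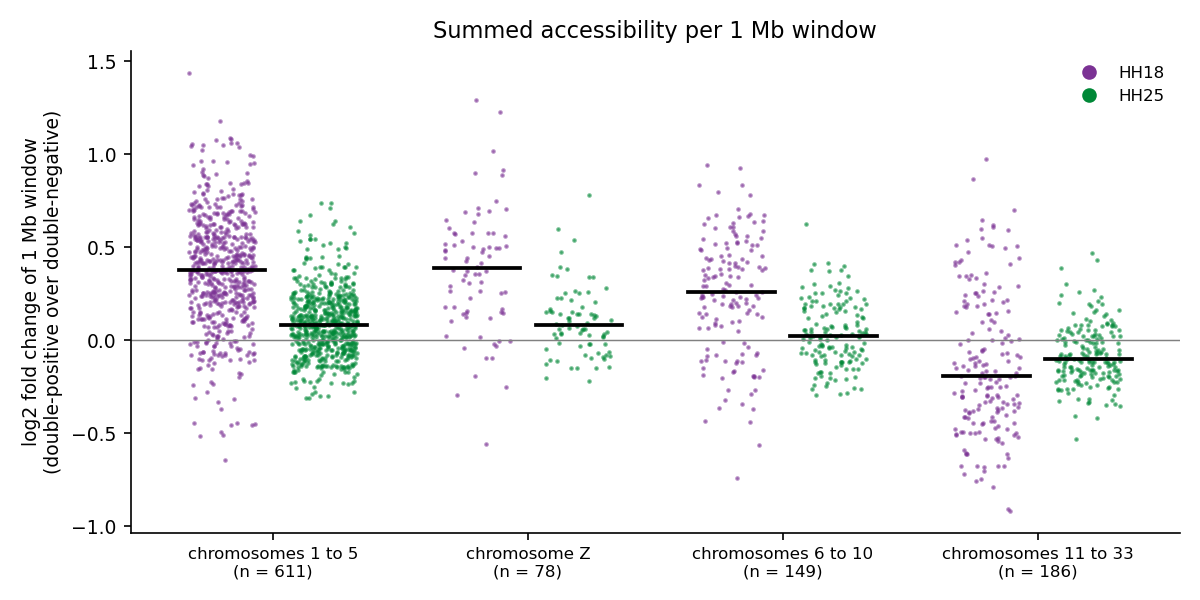
Log2 fold change of summed counts per 1 Mb window, double-positive over double-negative, for HH18 and HH25 in 4 chromosome classes; each point is a window and black lines are class medians. At HH18 the class medians are 0.38 on chromosomes 1 to 5, 0.39 on Z, 0.26 on chromosomes 6 to 10 and -0.20 on chromosomes 11 to 33, and at HH25 they lie nearer to 0.

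At HH25 288 windows (28%) were higher and 95 (9.23%) lower, and 685 windows (66.6%) passed the interaction. Of the 703 windows higher at HH18, 285 were higher at HH25 and 9 lower. Of the 143 lower at HH18, 61 were lower at HH25 and none was called higher.

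Among windows with at least 20 intervals the largest gains lay on chromosomes 1 and Z. The window from 4 to 5 Mb of chromosome Z held 701, 626 and 683 CPM in double-positive libraries, 466, 530 and 581 CPM in E2-only libraries and 292.5, 263.2 and 262.5 CPM in double-negative libraries. Its log2 fold change was 1.29 (SE 0.10, edgeR adjusted p = 2.9e-13), and 16 of its 54 tested intervals were higher and 2 lower. These are 29.6% and 3.7%, against 21.8% and 11.1% on all of chromosome Z and 17.8% and 13.9% over all tested intervals. The interval at 4103166, which is not its most changed one, held 12.8% of its double-positive and 3.75% of its double-negative counts. Without that interval the means were 583.9 CPM in double-positive and 262.5 in double-negative cells. The window from 29 to 30 Mb of chromosome Z held 377, 354 and 316 CPM in double-positive libraries, 183, 165 and 184 CPM in E2-only libraries and 169, 135 and 136 CPM in double-negative libraries (log2 1.23, SE 0.13, edgeR adjusted p = 1.6e-10). There the E2-only and double-negative libraries overlapped. Of its 33 tested intervals 8 (24.2%) were higher, near the 21.8% on all of chromosome Z, and 1 (3.03%) was lower. The interval at 29257886 held 19.5% of the window's double-positive and 2.19% of its double-negative counts. Without that interval the means were 280.7 CPM in double-positive and 143.6 in double-negative cells.

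On chromosome 1 the window from 153 to 154 Mb had a log2 fold change of 1.44 (SE 0.08, edgeR adjusted p = 5.9e-17), and 36.9% of its double-positive counts and 3.85% of its double-negative counts came from the interval at 153949737. Without that interval its means were 1145 CPM in double-positive and 641.6 in double-negative cells. The windows from 151 and from 127 Mb of chromosome 1 rose by 1.18 and 1.09 on the log2 scale, with 7 of 39 (17.9%) and 12 of 59 (20.3%) tested intervals higher and 1 and 2 lower. These shares of higher calls are near the 17.8% over all tested intervals and the 20.2% on chromosome 1. In the first the interval with the largest gain, at 151313833 to 151314033, held 28.0, 27.0 and 19.9 CPM in double-positive libraries, 2.69, 2.59 and 2.2 CPM in E2-only libraries and 1.86, 0.993 and 0.678 CPM in double-negative libraries.

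Among windows with at least 20 intervals the largest losses lay on chromosomes 10, 16, 17 and 27. The window from 0 to 1 Mb of chromosome 16 held 373, 455 and 369 CPM in double-positive libraries, 520, 447 and 573 CPM in E2-only libraries and 659, 635 and 762 CPM in double-negative libraries. Its log2 fold change was -0.79 (SE 0.14, edgeR adjusted p = 9.2e-05), with 26 of 63 tested intervals lower and none higher. On chromosome 27 the window from 2 to 3 Mb held 639, 623 and 551 CPM in double-positive and 925, 1058 and 984.5 CPM in double-negative libraries (log2 -0.70, SE 0.08, edgeR adjusted p = 5.8e-10). The windows from 5 Mb of chromosome 27, from 20 Mb of chromosome 10 and from 0 Mb of chromosome 17 fell by 0.75, 0.74 and 0.72 on the log2 scale. In these 5 windows 26.8% to 41.3% of tested intervals were lower and 0% to 5.17% higher, against 13.9% and 17.8% over all tested intervals. On the whole chromosomes lower calls made up 16.4% on chromosome 10, 41.3% on 16, 19.6% on 17 and 25.5% on 27. The chromosome 16 window holds all 64 intervals of that chromosome, and the chromosome 27 window from 2 Mb, at 26.8%, is near its chromosome. In each window 1 interval other than its most changed one was also left out. These held 4.67% to 20.5% of the window's double-positive counts and 6.51% to 17.5% of its double-negative counts. The log2 ratio of mean double-positive to mean double-negative level was then -0.85 to -0.66.

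Neighbouring intervals were called alike more often than intervals in general. Where 2 tested intervals lay under 1 kb apart, the neighbour of a higher interval was higher in 28.5%, against 18.8% of all intervals in such pairs, and the neighbour of a lower one was lower in 22.5%, against 13.1%. At 20 to 100 kb these shares were 21.0% against 18.7% and 17.1% against 10.9%. The background shares pool all assembled chromosomes, whose shares of calls differ, and likeness within and between chromosomes was not separated. On the assembled chromosomes most calls stood alone, since 13723 of the higher calls there (58.7%) and 10916 of the lower calls there (65.1%) had no call of the same direction as the next tested interval on either side. Runs of at least 3 neighbouring tested intervals numbered 1046 for higher and 556 for lower calls, and runs of at least 5 numbered 83 and 38. These counts are given without a reference, since none was made.

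The 3 longest runs of higher calls held 7 intervals each. The run on chromosome 3 from 23462990 to 23481344 summed to 230, 199 and 195 CPM in double-positive libraries, 114, 116 and 114 CPM in E2-only libraries and 48.1, 67.5 and 45.8 CPM in double-negative libraries. At HH25 its means were 81.8, 52.5 and 46.0 CPM in double-positive, E2-only and then double-negative cells. Of its 7 intervals 4 were called higher there, near the share of 53.4% among all HH18 higher intervals. The run on chromosome 20 from 7391533 to 7438086 had mean sums of 170 ± 26.2, 89.0 ± 9.22 and 43.8 ± 9.68 CPM in double-positive, E2-only and then double-negative cells, and the run on chromosome 4 from 64964750 to 64991449 of 126 ± 12.3, 44.3 ± 6.67 and 23.6 ± 9.5 CPM (SD, n = 3 each). The double-positive and double-negative libraries did not overlap in all 7 intervals of each run, against 94% of all higher intervals.

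The 3 longest runs of lower calls held 9, 9 and 8 intervals. The run on chromosome 8 from 4881304 to 4933270 summed to 27.7, 26.3 and 23.2 CPM in double-positive libraries, 25.8, 26.7 and 25.3 CPM in E2-only libraries and 86.3, 97.3 and 83.4 CPM in double-negative libraries. Double-positive and E2-only libraries overlapped, while at HH25 E2-only cells (77.3 ± 3.95 CPM) overlapped with double-negative cells (78.9 ± 5.27 CPM) and double-positive cells stood at 55.0 ± 3.03 CPM (SD, n = 3 each). The run on chromosome 20 from 13974871 to 14012368 had mean sums of 52.6, 50.9 and 133 CPM in HH18 double-positive, E2-only and then double-negative cells and 83.1, 121 and 144 CPM in the same groups at HH25. The run on chromosome 19 from 6429406 to 6541018 had mean sums of 45.4, 74.2 and 121.5 CPM in double-positive, E2-only and then double-negative cells at HH18, with E2-only cells between the other groups. Double-positive and double-negative libraries did not overlap in 5 of 9 intervals of the chromosome 19 run, 7 of 9 of the chromosome 8 run and 8 of 8 of the chromosome 20 run, against 84.6% of all lower intervals.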

How the data were processed

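The data are ATAC-seq read counts per interval in a table of raw counts deposited by the authors. Reads were processed with Bowtie 1.0.0, MACS2 and HOMER 4.7 on the galGal5 build, per the submitters' processing notes, which give no roles or order. Nearly all intervals (140061 of 140062) are 200 bp wide, the lowest value is 1, and the file does not state whether positions start at 0 or at 1. The value 1 may stand for no reads. Columns of 18 libraries in 6 groups of 3 were used, and 9 further per-sample columns were not used because their stage differs from the labels.

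All 18 libraries were fitted together with edgeR 4.0.16 in R 4.3.3 (filterByExpr, TMM, robust glmQLFit, glmQLFTest, and glmTreat for a fold of 2), with Benjamini-Hochberg adjustment over all 134020 tested intervals and a threshold of 0.05. CPM are scaled by TMM. Windows of 1 Mb with at least 5 intervals were fitted in the same way on summed counts. Shares of counts were compared with exact permutation tests, and figures drawn with matplotlib 3.10.9. The p-values rest on 3 libraries a group, and counting intervals (95%) and floors (3 counts) cover counting error only. On simulated counts for 132615 intervals the interval test found 8 of 100 changed 2-fold and 59 of 100 changed 4-fold. Of its 71 calls outside the changed windows 4 were false. The window test found 40 of 40 windows changed 1.5-fold, with 1 false call. The simulation changed fewer intervals than were called in the data and drew each interval independently, so these rates need not hold for the data.

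Intervals are named by rule: the 8 largest changes in each direction without overlap and with at least 20 CPM in the higher group, the 6 highest called in each direction, the 5 most changed windows in each direction with at least 20 intervals and their most changed interval, the 3 longest runs in each direction, and the 4 smallest interaction p-values in each direction among intervals called at HH18. The comparison, these rules and the alternatives were chosen with earlier results of these data known. Other settings of the same test gave no exact match to counts reported earlier from these data, and the fit as designed was kept. Alternatives were other scalings, filters, thresholds, window sizes, a fit of the 6 libraries alone, thinning, DESeq2 1.42.0, a replicate block and leaving out each library. Another subtracted 1 from every count and gave 22927 higher and 17210 lower interval calls. TMM before the filter was added after the data were seen.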

Additional observations from a re-analysis of the deposited data

Results flagged for a closer look

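The difference between double-positive and double-negative cells itself differed between HH18 and HH25 (interaction term of edgeR's quasi-likelihood fit, adjusted p below 0.05) at 9368 intervals and 685 windows of 1 Mb. Of the 50 named intervals 27 did so, 26 of them with the sign of their HH18 change, and all 10 named windows did. Intervals and windows were named for large HH18 changes or for this difference itself, so the choice favours both the number and the sign, and the counts are a description. Values below are the HH18 minus the HH25 log2 fold change.

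Among the strongest gains it was 2.70 at 159715210 and 2.88 at 102437130 of chromosome 1, 3.03 at 15875489 of chromosome 8, 2.51 at 18852934 of chromosome 9, 3.89 at 61827593 and 2.41 at 26604988 of chromosome 4, and 3.66 at 17072755 of chromosome Z. Among the strongest losses it was -5.26 at 159624678 of chromosome 1 and -3.30 at 57268447 of chromosome Z. Among the most accessible intervals it was 2.44 at 153949737 of chromosome 1, 0.93 at 27346871 of chromosome 2 and -1.04 at 49353470 of chromosome 5. The last is the exception in sign, since double-positive cells exceeded double-negative cells by more at HH25.

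In the runs it was 2.03 at 23476307 of chromosome 3, 1.85 at 7394928 and -2.46 at 14001206 of chromosome 20. The last rested on 29 double-negative and 5 double-positive counts at HH18, and its HH18 call was lost in 1 alternative. In the windows' most changed intervals the difference was 3.67 at 29597368 of chromosome Z, 2.80 at 151313833 and 1.94 at 127074833 of chromosome 1. It was -3.13 at 616931 of chromosome 16 and -2.69 at 5249671 of chromosome 27. The chromosome Z interval held 3 double-negative counts at HH18 and the chromosome 27 interval 4 double-positive counts. Among the intervals named for this difference it was 3.74 at 45287795 of chromosome 3, 3.03 at 138081183 of chromosome 2 and 2.57 at 7169931 of chromosome 13. On the unlocalised contigs assigned to chromosome 1 it was -2.87, -2.27, -2.57 and -2.14.

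For the windows it was 0.91, 0.50 and 0.55 from 153, 151 and 127 Mb of chromosome 1, and 0.51 and 0.85 from 4 and 29 Mb of chromosome Z. It was -0.62 from 0 Mb of chromosome 16, -0.41 and -0.35 from 5 and 2 Mb of chromosome 27, -0.66 from 20 Mb of chromosome 10 and -0.56 from 0 Mb of chromosome 17.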

How the results depend on the processing

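Lower interval calls numbered 11678 at an adjusted p below 0.01. With library totals alone 7419 interaction calls were more negative at HH18 and 278 windows were lower, and with the 6 compared libraries alone 234 windows were lower. Thinned to the shallowest library, 55268 intervals were tested and 20937 called (12014 higher, 8923 lower, of which 6076 and 2038 were shared with HH25), with 1915 interaction calls (859 and 1056). Windows of 2 Mb gave 437 calls (362 higher, 75 lower of 524) and windows of 500 kb 1571 (1272 and 299 of 2035), as fewer or more windows were tested. Leaving out 1 library gave 35057 to 39760 interval calls (20239 to 23217 higher, 14709 to 16543 lower), 655 to 722 higher and 121 to 139 lower windows, and 6140 to 8860 interaction calls (2733 to 4033 more positive, 3407 to 4847 more negative at HH18). DESeq2 called 22183 intervals higher and 17503 lower. Without the filter the split was 22168 and 21846, and with TMM before the filter 22201 and 21862. With loess offsets the intervals at 10427566 of chromosome 2 and 84556960 of chromosome 4 changed sign, to 0.13 and 0.10. The cause was not tested. Over the named intervals and windows 895 of the alternative values kept direction and call and 17 lost the call. Double-negative replicate 2 had the fewest counts over the intervals, 992341.

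The deviations of same-numbered libraries from their group means correlated at 0.0135, -0.0163 and 0.0110, against at most 0.0149 between differently numbered ones. Counting error at low counts weakens such correlations, so they cannot decide whether same-numbered libraries were prepared together. With the replicate block 23503 intervals were higher and 18175 lower, and 705 and 151 windows.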
